A study of Saccharomyces cerevisiae with 3 samples.

Results

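The cytosolic, nuclear and mitochondrial thioredoxins, thioredoxin reductases and peroxiredoxins of baker's yeast, Saccharomyces cerevisiae, are encoded by 10 genes: TRX1, TRX2, TRX3, TRR1, TRR2, TSA1, TSA2, AHP1, PRX1 and DOT5. The genes were taken by name from the platform annotation of a spotted array, on which all 10 were found, each with 2 spots, among 5539 named genes. Their log ratios were read on 3 two-colour arrays, numbered as replicates of a single comparison. On each array the Cy3 channel held total RNA of a yap1 deletion mutant and the Cy5 channel total RNA of the wild type. Both strains had been stressed with 0.2 mM As(III), which is arsenite, and sampled after 1 h, so the treatment is shared and the strain differs between the channels together with the dye. The labels do not state the strain background, the culture conditions or whether separate cultures were used, so every p-value covers the spread of these arrays alone, and that spread may be technical.

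A thioredoxin is a small protein whose pair of cysteines reduces disulfides in other proteins. It is returned to its reduced form by thioredoxin reductase, a flavoprotein that takes its electrons from NADPH. Peroxiredoxins break down hydrogen peroxide and organic peroxides at a reactive cysteine and depend on thioredoxin, or in part on glutathione, to become active again. In yeast the transcription factor Yap1, together with Skn7, is known to activate several of these genes under oxidative stress, TRX2, TRR1, TSA1 and AHP1 among them. Arsenite binds to thiol groups, the chemical group on which this whole system works, so the comparison asks how its transcripts differ when Yap1 is missing from arsenite-stressed cells.

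The labels give neither the direction of the deposited ratio nor the base of its logarithm. Each value below is a deposited log ratio from which the median of the named genes on that array was subtracted, and a gene is placed on the high or the low side of that median without saying which strain held more transcript. The medians removed were −2.11, −2.303 and −1.59 on replicates 1, 2 and 3. YAP1, the deleted gene, stood at −1.43, −0.22 and −0.74. These values are all below the median, but on replicate 2 the gene lay near the middle of the array, and this did not settle the direction. All arrays had the same dye orientation, so a gene's dye effect and the strain difference cannot be told apart. In bulk RNA, fewer cells of a kind and less RNA per cell cannot be told apart either.

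The 10 genes did not move as a block. PRX1 and AHP1, both peroxiredoxin genes, lay on the low side, and TRX1 and TRR1, a thioredoxin and its reductase in the cytosol, lay on the high side, in a limma test of the mean of the 3 arrays against 0 with Benjamini-Hochberg adjustment over all 5539 genes at a threshold of 0.05. The other 6 did not pass. Of all named genes 28.5% passed (16% high and 12.5% low), so a count of 4 among 10 does not set the family apart from the array. The median of the 10 means was −0.020, beside −0.017 over all genes. At an unadjusted p under 0.05 there were 5 members, TSA1 being the added gene, beside 40.8% of all genes. Without replicate 3, PRX1 alone of the 10 passed, among 323 genes in all (5.83%). The sides are relative to the array median: as deposited, with no centring, the means of all 10 were below 0. So were the values of 96.9% to 98.9% of all genes on the single arrays. For 6 members all 3 arrays lay on the same side, as they did for 58.9% of all genes.

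**Figure D1:**
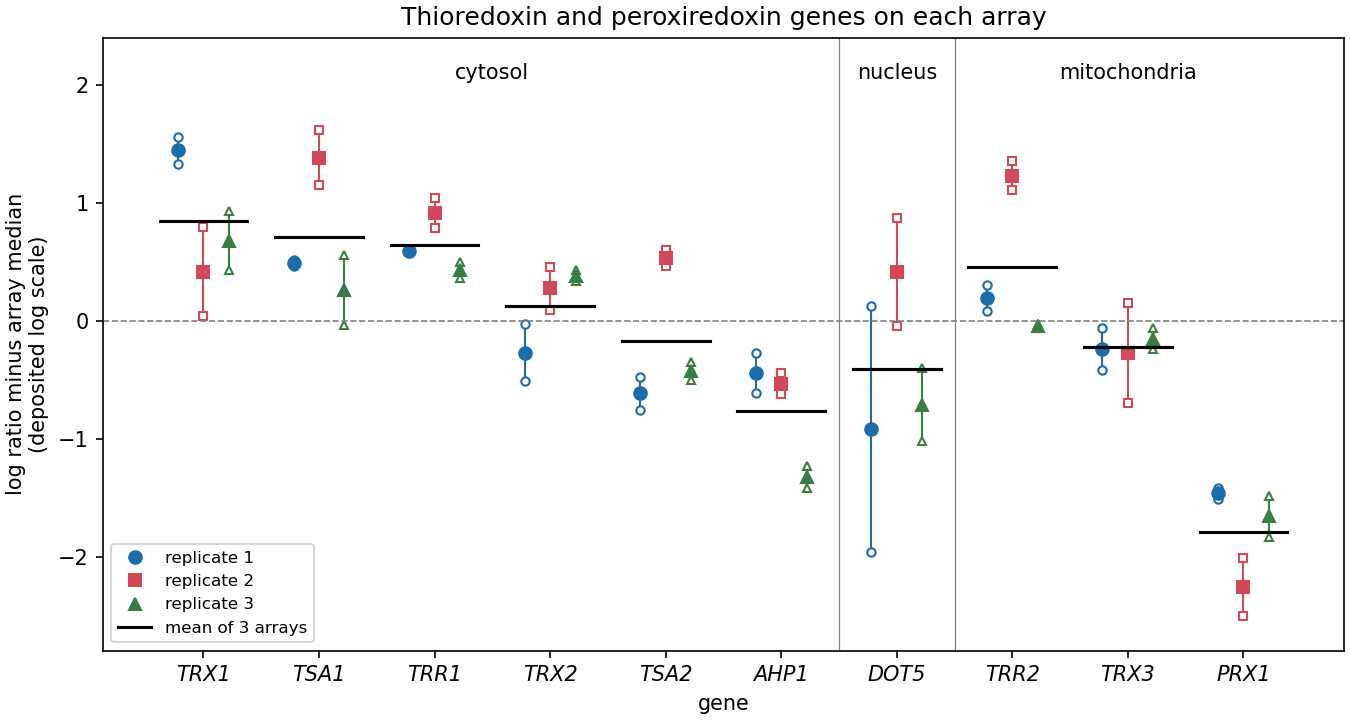
Log ratios of the 10 genes after subtraction of each array's median over named genes (vertical axis, deposited log scale), ordered by compartment and mean. Filled symbols are the average of the 2 spots on each array, open symbols the single spots and black bars the mean of the 3 arrays: PRX1 lies at −1.46 or lower on every array, while the spots of DOT5 on replicate 1 stand at −1.96 and 0.12.

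PRX1 (YBL064C) encodes the mitochondrial peroxiredoxin, which uses a single catalytic cysteine to reduce peroxides formed in that compartment. It stood at −1.46, −2.26 and −1.66 on replicates 1, 2 and 3. All 3 values are far out on the low side, with percentiles among the genes of 2.18, 0.108 and 0.849. The mean of −1.79 ± 0.41 (SD, n = 3) was the 6th lowest of all 5539 genes, with a limma adjusted p of 7.15e-05 and a 95% interval of −2.31 to −1.28. Its 2 spots averaged −1.83 and −1.76, so each spot gave the same picture. As deposited, before centring, the averages of the spots were −3.57, −4.56 and −3.25.

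Low values on these arrays were also found in some spots with no gene symbol. At 4 pairs of neighbouring positions in each of 48 blocks, 192 spot pairs without a symbol had a median of −1.05. Position pairs were kept only where their median lay below the lower quartile of the genes on every array. Their low median was therefore set by that choice, and they do not stand for all spots without a symbol. PRX1 stood at percentile 1.56 of those pairs and AHP1 at percentile 77.1, so AHP1 lay well inside their range. Measured from the median of these pairs on each array, which leaves out the spread among them, PRX1 kept a mean of −0.77 (limma adjusted p = 0.0128), and it was the only member on the low side, where 0.181% of all genes passed. The labels do not state what those positions hold. The PRX1 call held in all 12 alternative treatments of the data, with limma adjusted p from 2.26e-09 to 0.0404. The means ran from −3.79, with no centring, where 94.9% of all genes passed low, to −0.77.

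AHP1 (YLR109W) encodes a cytosolic peroxiredoxin that prefers organic hydroperoxides as substrates. It stood at −0.44, −0.53 and −1.33 on replicates 1, 2 and 3. Every array was on the low side, but replicate 3 was far lower than the rest, at the 1.88th percentile against the 27th and 25.8th. The mean was −0.77 ± 0.49 (SD, n = 3; limma adjusted p = 0.0317). Without replicate 3 it was −0.49, with a limma adjusted p of 0.254, and 0.867% of all genes passed on the low side there. AHP1 also did not pass from its lower-numbered spot alone (−0.78, limma adjusted p = 0.083) or its higher-numbered spot alone (−0.82, limma adjusted p = 0.0506). Over the 12 alternatives the adjusted p ran from 8.42e-06, with no centring, where 94.9% of all genes passed low, to 0.404. Against the spot pairs without a symbol, which were chosen for low values, AHP1 turned to 0.26 (adjusted p = 0.404).

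TSA1 (YML028W) encodes the major cytosolic peroxiredoxin, an abundant enzyme that also binds ribosomes and acts as a chaperone when overoxidised. It stood at 0.49, 1.38 and 0.26 on replicates 1, 2 and 3. All arrays were on the high side, with replicate 2 well above the others. The mean of 0.71 ± 0.59 (SD, n = 3) had a limma adjusted p of 0.0506 and missed the threshold. It passed without replicate 1 (0.82, adjusted p = 0.0263), when arrays were centred on all spots (adjusted p = 0.0367) and with a robust prior (adjusted p = 0.0411). Over the 12 alternatives the limma adjusted p ran from 1.61e-08 to 0.489. The lowest came against the spot pairs without a symbol, where 75.3% of all genes passed high.

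TSA2 (YDR453C), the close paralog of TSA1 and usually the less expressed of the pair, stood at −0.61, 0.53 and −0.43. Replicate 2 was on the other side of the median from the other arrays, and the mean of −0.17 ± 0.62 (SD, n = 3) did not pass (limma adjusted p = 0.654). DOT5 (YIL010W) encodes the nuclear peroxiredoxin, named for a disruptor of telomeric silencing. Its values were −0.92, 0.41 and −0.71, again with replicate 2 on the other side, and the mean was −0.41 ± 0.72 (SD, n = 3; limma adjusted p = 0.278). The spots of DOT5 differed widely: the first stood at −1.96, −0.041 and −1.02, and the second at 0.12, 0.87 and −0.40. The SD between its repeated spots was 0.963, against a median of 0.32 over all genes, so the nuclear member is the least well measured of the 10.

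Among the thioredoxins, TRX1 (YLR043C), a cytosolic thioredoxin, stood at 1.45, 0.42 and 0.68 on replicates 1, 2 and 3. It was on the high side of every array, and replicate 1 was the highest. The mean was 0.85 ± 0.54 (SD, n = 3; limma adjusted p = 0.0216). It did not pass without replicate 1 (0.55, adjusted p = 0.163), without replicate 3 (0.93, adjusted p = 0.143) or from its higher-numbered spot alone (0.62, adjusted p = 0.173). Over the 12 alternatives the limma adjusted p ran from 1.1e-09 to 0.173. The lowest came against the spot pairs without a symbol, where 75.3% of all genes passed high. As deposited, with no centring, its mean was −1.15.

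TRX2 (YGR209C), the second cytosolic thioredoxin and a standard reporter gene of Yap1 activity, stood at −0.27, 0.28 and 0.38. The arrays disagreed on the side of the median, and the mean of 0.13 ± 0.35 (SD, n = 3) did not pass (limma adjusted p = 0.711). Its 95% interval ran from −0.38 to 0.64. TRX1 and TRX2 are highly alike in sequence, as are TSA1 and TSA2, and the labels do not state the kind of probe, so each value may hold signal of the paralog. TRX3 (YCR083W), the mitochondrial thioredoxin, stood at −0.24, −0.27 and −0.15, which averages to −0.22 ± 0.062 (SD, n = 3; limma adjusted p = 0.493). Its arrays agreed closely, within the 36.9th to 38th percentile, and its 95% interval of −0.70 to 0.26 spans the median.

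TRR1 (YDR353W), the cytosolic thioredoxin reductase, stood at 0.59, 0.91 and 0.43 on replicates 1, 2 and 3. All 6 spot values were on the high side, from 0.36 to 1.04, and the mean was 0.65 ± 0.24 (SD, n = 3; limma adjusted p = 0.049). This lay close to the threshold, and the gene did not pass when any single array was left out (0.67, 0.51 and 0.75 without replicates 1, 2 and 3, with adjusted p of 0.0775, 0.315 and 0.134). TRR2 (YHR106W), the mitochondrial reductase, stood at 0.19, 1.23 and −0.046. Its mean of 0.46 ± 0.68 (SD, n = 3) came mostly from replicate 2 and did not pass (limma adjusted p = 0.209).

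The agreement of repeated spots moved with the ratio across the array, and the reductases have to be read beside it. Genes were ordered by the SD between their repeated spots, pooled over the arrays, and divided into 10 groups. From the group of best to that of poorest agreement the median ratio went from 0.60 to −0.52. TRR1 and TRR2 belonged to the former, with SDs of 0.12 and 0.134, and against the median of their group on each array TRR1 stood at 0.017 and TRR2 at −0.17. DOT5 belonged to the latter and stood at 0.11 against its group. TRX1, TSA1, AHP1 and PRX1 stood farther from their groups, at 0.92, 0.68, −1.12 and −1.95. After this subtraction, which was chosen after the data were seen, TRX1, AHP1 and PRX1 passed and TRR1 did not (limma adjusted p = 0.0292, 0.0102, 0.00116 and 0.963), where 19.3% of all genes passed. The part of spot agreement in the values was not tested further, as no channel intensities were analysed here.

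**Figure D2:**
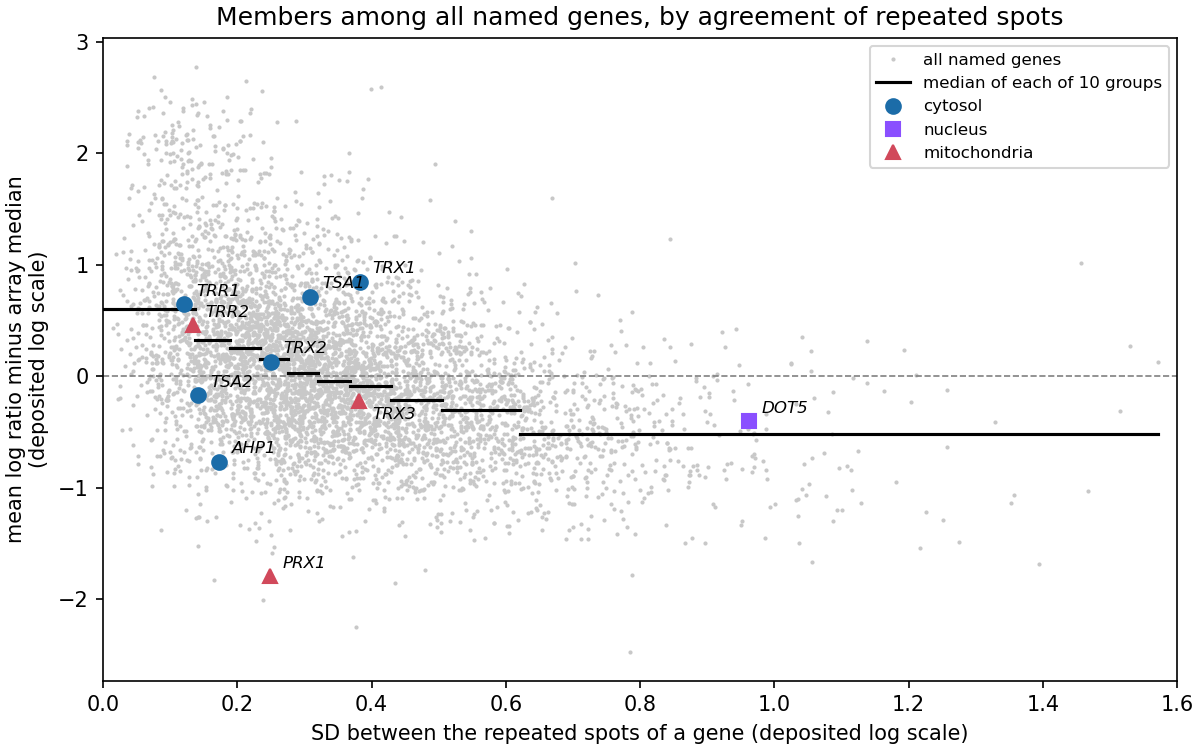
Mean centred log ratio of 3 arrays (vertical axis, deposited log scale) against the pooled SD between repeated spots (horizontal axis, same scale) for 5539 named genes in grey, with the 10 members coloured by compartment and black bars for the median of each of 10 groups of genes. TRR1 and TRR2 sit near the bar of their group at 0.60, while PRX1 lies far under its own at 0.15.

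Every spot value of 4 members lay on the same side of the median on all 3 arrays, high for TRX1 and TRR1 and low for AHP1 and PRX1. Over all genes 37% did so, 21.8% high and 15.2% low. Ordered by their means, the 10 genes ran from TRX1 (0.85) through TSA1 (0.71), TRR1 (0.65), TRR2 (0.46), TRX2 (0.13), TSA2 (−0.17), TRX3 (−0.22), DOT5 (−0.41) and AHP1 (−0.77) to PRX1 (−1.79). Of the 9 neighbouring pairs in that order, only AHP1 and PRX1 kept their order on every array, with gaps of 1.02, 1.73 and 0.33, a mean of 1.03 ± 0.70 (SD, n = 3). The other neighbours did not differ beyond their spread. Replicate 2 gave the highest value for 5 of the 10 members (TRR1, TRR2, TSA1, TSA2 and DOT5), while it was the highest array for 38.4% of all genes.

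Pairs with the same enzymatic role were then compared within each array, 8 in all, by an exact two-sided sign-flip permutation test. With 3 arrays its smallest possible p is 0.25, so no pair could pass 0.05, and sizes and spreads are given in its place. TSA1 stood above PRX1 by 1.95, 3.64 and 1.92 on replicates 1, 2 and 3, a mean difference of 2.51 ± 0.98 (SD, n = 3; exact p = 0.25, adjusted 0.333 over the 8 pairs). This was the widest of the 8 pairs. PRX1 had the 6th lowest mean of all 5539 genes, so nearly every gene stood above it and the gap is not particular to TSA1. AHP1 also stood above PRX1 on every array.

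TSA1 also stood above the other cytosolic and the nuclear peroxiredoxins on all 3 arrays. The difference from AHP1 was 0.93, 1.92 and 1.59, with a mean of 1.48 ± 0.50 (SD, n = 3). From DOT5 it was 1.41, 0.97 and 0.97, with a mean of 1.12 ± 0.25, and from TSA2 1.11, 0.85 and 0.69, with a mean of 0.88 ± 0.21 (SD, n = 3 each). The mean difference from DOT5 was 1.71 with the lower-numbered spots and 0.53 with the higher-numbered ones. That from TSA2 ran from 0.41, centred within blocks, to 1.20, with the trend in spot agreement removed. TSA1, TSA2 and DOT5 were all highest on replicate 2, as were 38.4% of all genes. The differences of TSA1 from TSA2 and from DOT5 varied less than any of these genes alone. These 3 pairs also had an exact p of 0.25, adjusted 0.333. They share TSA1 with each other and with the PRX1 pair, so their common sign is not independent.

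Thioredoxins and reductases were compared in the same way. TRX1 stood above the mitochondrial TRX3 by 1.69, 0.69 and 0.83, a mean of 1.07 ± 0.54 (SD, n = 3; exact p = 0.25, adjusted 0.333). Its difference from TRX2 was 1.72 on replicate 1 but 0.14 and 0.30 on replicates 2 and 3, a mean of 0.72 ± 0.87 (SD, n = 3), smaller than its spread. TRX2 and TRX3 differed by 0.35 ± 0.33, and TRR1 and TRR2 by 0.19 ± 0.44 (SD, n = 3 each), with a sign that changed between arrays in both pairs (exact p = 0.5, adjusted 0.5). No difference between the cytosolic and the mitochondrial reductase gene was detectable with these arrays.

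Averaged over the 6 cytosolic genes, the log ratio was 0.20, 0.50 and −0.00034 on replicates 1, 2 and 3. Over the 3 mitochondrial genes it was −0.50, −0.43 and −0.62. The cytosolic average was the higher on every array, by 0.70, 0.93 and 0.62, a mean of 0.75 ± 0.16 (SD, n = 3), given with no p because the genes are not replicates. The difference rested on PRX1: without that gene the mitochondrial average was −0.023, 0.48 and −0.099, and the difference fell to 0.11. The nucleus is represented by DOT5 alone, whose difference from the cytosolic average, 0.64 ± 0.52 (SD, n = 3), was 1.31 with the lower-numbered spots and −0.030 with the higher-numbered ones. By role, the 5 peroxiredoxins averaged −0.59, −0.092 and −0.77, the 3 thioredoxins 0.31, 0.14 and 0.30, and the 2 reductases 0.39, 1.07 and 0.19. The peroxiredoxin average was the lowest of the 3 roles on every array, but it holds genes as far apart as TSA1 and PRX1. Without PRX1 it was −0.37, 0.45 and −0.55, and on replicate 2 it then lay above the thioredoxins.

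**Figure D3:**
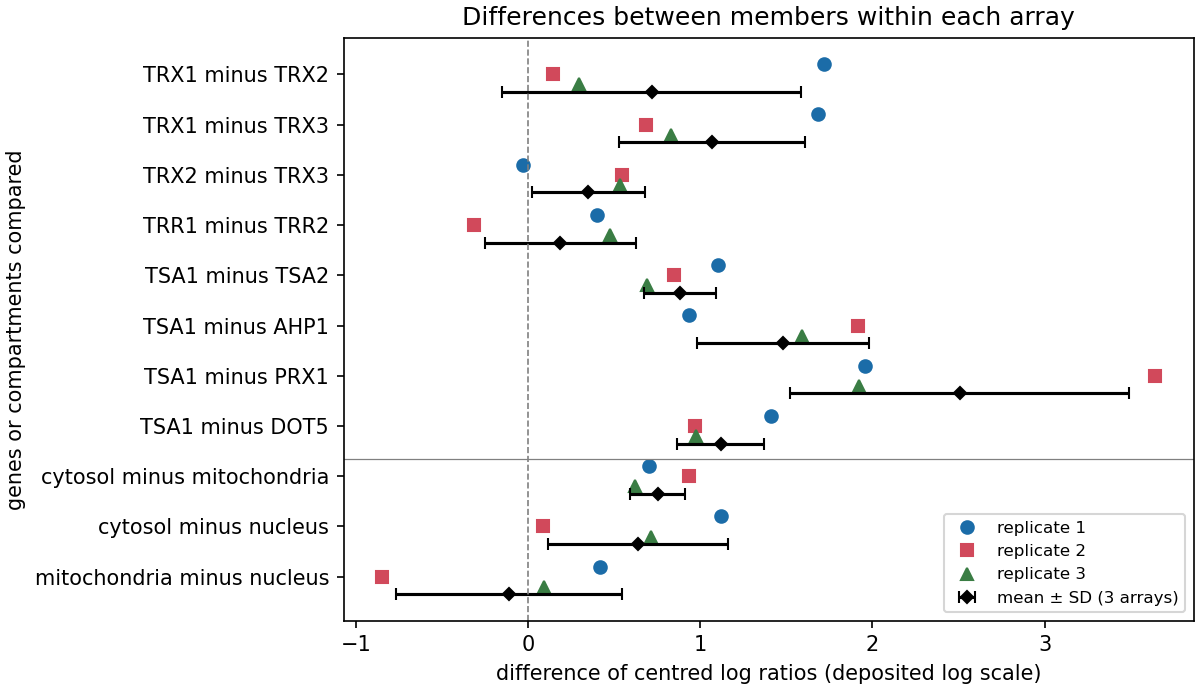
Differences of centred log ratios within each array (horizontal axis, deposited log scale) for 8 pairs of genes and, under the line, for the averages of the compartments. Coloured symbols are the arrays and black diamonds with bars the mean ± SD of 3 arrays: the 4 differences that start from TSA1 lie right of 0 on every array, while TRR1 minus TRR2 and TRX2 minus TRX3 have arrays on either side. The 4 differences from TSA1 share that gene and are not independent.

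The enzymes that work with the thioredoxin system were described from 5 lists with 31 genes. In all, 6 of the 31 were called high and 6 low, while 19 did not pass, beside the 16% and 12.5% of the whole array. NADPH supply, on which thioredoxin reductase depends, had 4 high and 1 low among 10 genes, with 5 that did not pass and a median of 0.59. ALD6, the cytosolic aldehyde dehydrogenase that yields NADPH, stood at 2.32, 1.95 and 1.72 (mean 2.00 ± 0.30, SD, n = 3; limma adjusted p = 2.06e-05). IDP1, the mitochondrial NADP-dependent isocitrate dehydrogenase, had a mean of 1.49 ± 0.54 and TAL1, the transaldolase of the pentose phosphate pathway, of 0.97 ± 0.40 (SD, n = 3 each). GND1, a phosphogluconate dehydrogenase of that pathway, at 0.68, completes the count and was named after its value was seen. SOL4, a lactonase-type gene of the same pathway, stood at −1.30 ± 0.20 (SD, n = 3; limma adjusted p = 0.000809), on the low side.

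Among 7 genes of reductases that draw on thioredoxin, 2 lay on each side and 3 did not pass, with a median of 0.15. MET16, the PAPS reductase of sulfate assimilation, stood at −1.25, −0.998 and −1.86, which gives −1.37 ± 0.44 (mean and SD, n = 3; limma adjusted p = 0.000896). MXR1, the methionine sulfoxide reductase of the cytosol, stood at −1.21, −1.19 and −1.39, which gives −1.26 ± 0.11 (mean and SD, n = 3; limma adjusted p = 0.000968). Both genes lay on the low side on every array, as PRX1 did and as did 29.2% of all genes. RNR1 and RNR3, the large subunits of ribonucleotide reductase, lay on the high side at 0.93 ± 0.33 and 0.89 ± 0.36 (SD, n = 3 each; limma adjusted p = 0.00935 and 0.0124).

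Of 5 genes for recycling and signalling partners, with a median of −0.30, only GPX1, a glutathione peroxidase-type enzyme, passed, on the low side at −1.01 ± 0.24 (SD, n = 3; limma adjusted p = 0.00504). SRX1, the sulfiredoxin that restores overoxidised Tsa1, stood at −0.37, −0.63 and −0.91 and missed the threshold (mean −0.63, limma adjusted p = 0.0537). Of 7 genes on the glutathione side, with a median of 0.010, only GRX8, a glutaredoxin gene, passed, on the low side at −1.30 ± 0.64 (SD, n = 3; limma adjusted p = 0.00222). The regulators were YAP1 at −0.80 ± 0.61 and SKN7 at 0.66 ± 0.37 (SD, n = 3 each), with limma adjusted p of 0.0323 and 0.0511. Without replicate 3, only ALD6 and IDP1 of the 31 genes passed, beside 5.83% of all genes. The low-side calls were lost there with most of those on the array (0.867% of all genes passed low), while the means moved little for GPX1 (−0.998), MXR1 (−1.20), SOL4 (−1.27) and YAP1 (−0.83) and more for MET16 (−1.12) and GRX8 (−0.97).

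Spot agreement bears on these genes as it does on the members. RNR3 and TAL1 belonged to the group of best agreement and, against the median of that group on each array, stood at 0.26 and 0.34. GPX1, GRX8 and YAP1 belonged to the group of poorest agreement and stood at −0.49, −0.78 and −0.28 against theirs. None of these 5 passed after this subtraction, nor did GND1 (0.40), whereas ALD6 (1.37), IDP1 (1.21), RNR1 (0.78), MET16 (−1.65), MXR1 (−1.62) and SOL4 (−1.01) did. High-side calls among the 31 went from 6 to 3, where 10.9% of all genes passed high. ZWF1, the first enzyme of the pentose phosphate pathway, was the only gene added, at −1.31 (limma adjusted p = 0.00474), and was named after its value was seen. SRX1 and SKN7 were likewise named after their values were seen.

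**Figure D4:**
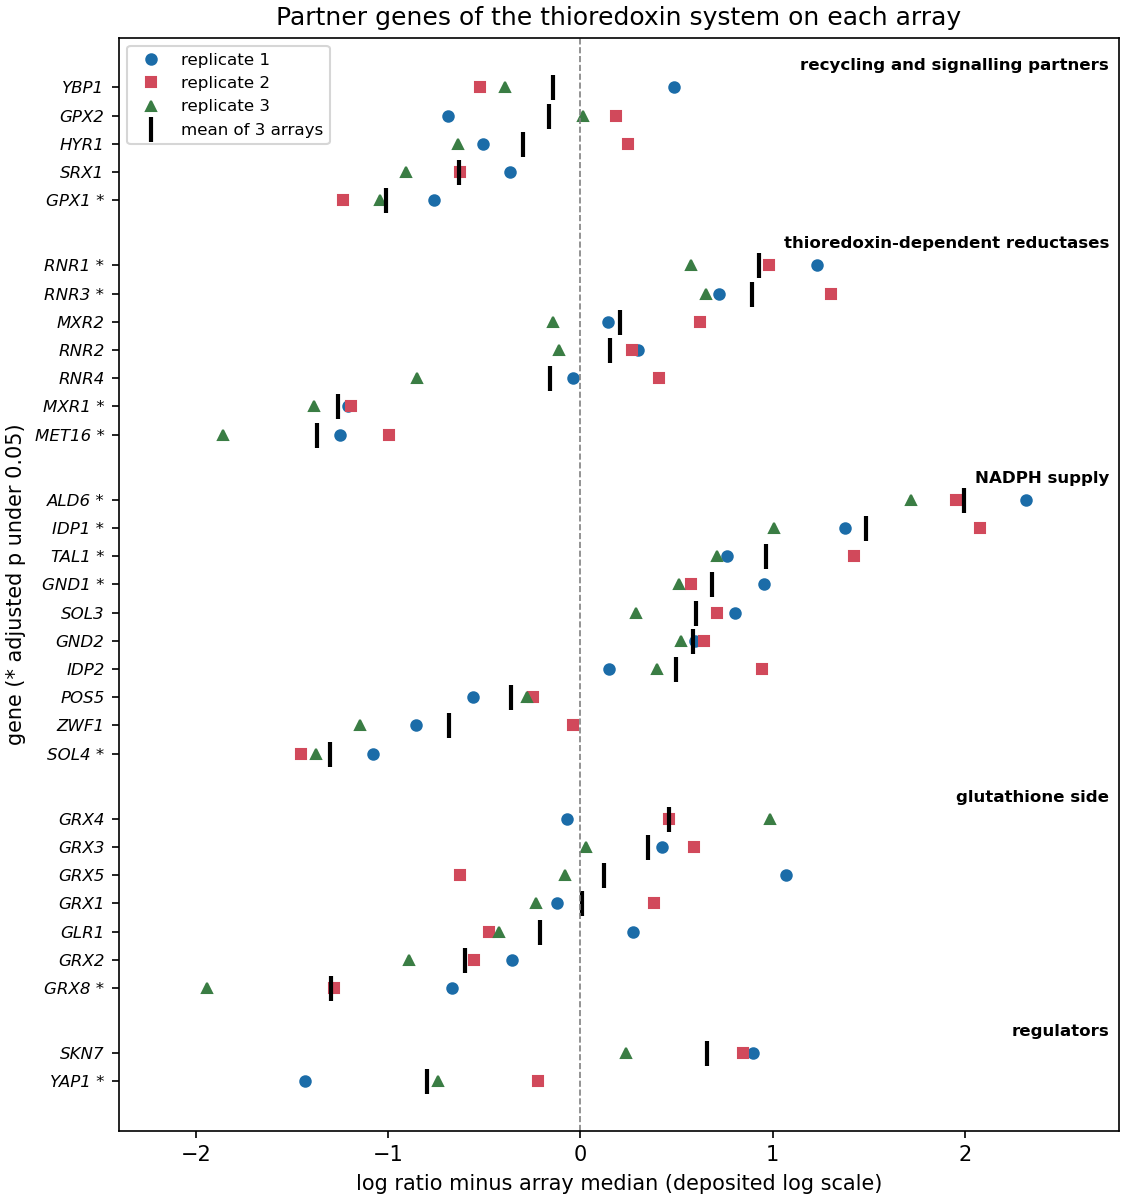
Centred log ratios of 31 genes that work with the thioredoxin system (horizontal axis, deposited log scale) on each array, by list, with black bars for the mean of 3 arrays and an asterisk for a limma adjusted p under 0.05. ALD6 and IDP1 lie at 1.01 or higher on all arrays, and MET16 and MXR1 at −0.998 or lower.

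The genes closest to each called member were those with the smallest Euclidean distance over the 3 arrays, outside the 10. For PRX1 they were YLR001C (distance 0.258, values −1.65, −2.09 and −1.62) and CTT1, the cytosolic catalase gene (0.287, values −1.67, −2.11 and −1.80). For AHP1 they were CSS3 (0.123) and IAT4 (0.179), each lowest on replicate 3 as AHP1 was. For TRX1 they were HO, the mating-type endonuclease gene (0.0638), and HSC82, a gene for Hsp90 (0.0909), both highest on replicate 1. For TRR1 they were ADE2, a purine synthesis gene (0.0603), and RRD1 (0.0811). As the neighbours were picked by these distances, the array pattern that each shares with its member follows from that choice. The distances of the TRX1 and TRR1 neighbours were shorter than those of PRX1. PRX1 was the 6th lowest of all genes, where few genes lie, so the distances do not compare likeness between members.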

How the data were processed

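Total RNA of both strains was compared on 3 two-colour arrays. The deposited table holds a log ratio for every spot on each array. A log2 scale was assumed for these deposited values. The logarithm's base, the ratio's direction, the background correction and any normalization done by the authors are not given in the sources used here. Spots were named through the platform annotation: 11138 of the 13056 spots carried 1 symbol, 0 carried several and 1918 carried none. Locus names came from the RefSeq gene table of assembly R64, in which 5534 of 5539 genes matched by gene ID. No sequence of a member was printed.

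Spots of a gene were averaged, the named genes' median was subtracted on each array, and the mean was tested against 0 with limma 3.58.1 in R 4.3.3 (lmFit, eBayes, two-sided, Benjamini-Hochberg over 5539 genes, threshold 0.05). The fit was also run on simulated data, and its outcome there is not reported here. Each mean rests on 3 arrays, and no intensities were analysed. Named genes were the 10 members, YAP1, up to 4 called genes of each list, and the 2 nearest genes of each called member. The members, lists and alternatives were chosen with earlier results of these data known.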

Additional observations from a re-analysis of the deposited data

How the results depend on the processing

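PRX1 passed on the low side in all 12 alternative treatments. TRX1 and AHP1 passed on their side in 8 of the 12, and TRR1 in 4. Those counts include settings that moved most genes to 1 side. With no centring, counted for PRX1 and AHP1, 94.9% of all genes passed low. Against the spot pairs without a symbol, counted for TRX1 and TRR1, 75.3% passed high. The arrays form 1 group with no second group to pair them with, so pairing was used only between genes within an array. With no centring and a test against 0, 5260 genes passed (2 high, 5258 low), all 10 members were low with 0 high, and 29 pathway genes were low with 0 high. The means of TRX1, TRX2, TRR1, TRR2 and TSA1 then turned to −1.15, −1.87, −1.35, −1.54 and −1.29. Measured from the spot pairs without a symbol, 4180 genes passed (4170 high, 10 low), with 9 members (8 high, 1 low) and 22 pathway genes (22 high, 0 low). TRX3, TSA2, AHP1 and DOT5 then turned to 0.81, 0.86, 0.26 and 0.62. These pairs were chosen below the lower quartile of the genes on every array, so the high side of most genes there follows from that choice. Which of these zero points is the right one cannot be told from the table, so the split into sides depends on the centring.

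With the lower-numbered spot alone, 1014 genes passed (601 high, 413 low), with 2 members (1 high, 1 low), and the cytosol minus nucleus difference was 1.31. With the higher-numbered spot alone, 1141 genes passed (20.6%; 11.5% high, 9.12% low) and 1 member (0 high, 1 low), this difference was −0.030, and TRX2 and DOT5 turned to −0.053 and 0.14. Centred within blocks, 14.5% of all genes and 1 member were high, and TSA2 turned to 0.079. With the trend in spot agreement removed, which was chosen after seeing the data, 605 genes were high and 463 low, 1 member was high, and 7 pathway genes passed, 3 of them high. TRX2, TRR2 and DOT5 then turned to −0.023, −0.17 and 0.11, cytosol minus nucleus was −0.12, and mitochondria minus nucleus was −0.87. Cytosol minus mitochondria fell to 0.11 without PRX1, also chosen after the data were seen.

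Leaving out 1 array at a time, 323 to 1443 genes passed (275 to 826 high, 48 to 617 low), with 1 to 3 members (0 to 1 high, 1 to 2 low) and 2 to 11 pathway genes (2 to 5 high, 0 to 7 low). The fewest calls came without replicate 3. The mean of TSA2 ran from −0.52 without replicate 2 to 0.054 without replicate 1. Scaling the arrays to equal spread, centring on all spots and a robust prior moved no count of genes by more than 1.5 times. The causes of these shifts were not tested. Settings that leave out an array or a spot also rest on fewer values. Signal over background is unknown for every spot.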
